A study of Mus musculus with 20 samples.

Results

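Of 56239 genes counted in chromatin-associated RNA of a mouse pre-B cell line, 41 were low 2 h after IKZF1 (Ikaros) was brought into the nucleus and high after 24 h. They were selected on the 0 h, 2 h and 24 h libraries. A gene needed 30 or more counts in both 0 h libraries, a log2 ratio of -0.8 or lower at 2 h against 0 h, and a log2 ratio of 0.8 or higher at 24 h against 0 h. These ratios used counts scaled to a common library total (CPM), averaged over 2 replicates, with 0.1 added. Enough counts at 0 h were found for 12339 genes, of which 1212 were low at 2 h and 1760 were high at 24 h, so the 41 were 3.38% of the first and 2.33% of the second. A further 3 genes that met the thresholds, Blnk, Maml2 and Gbp7, were left out by name. Gimap5, also left out by name, did not meet them. Among the genes low at 2 h, 902 were at -0.8 or lower at 24 h as well and are called stayed low here, and 266 were in between.

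The cells were B3, a mouse pre-B line transduced by retrovirus with Ikaros-ERt2, that is IKZF1 joined to a mutant estrogen receptor domain, which lets 4-hydroxytamoxifen (4-OHT) release it into the nucleus. Untreated cells (0 h) and cells after 0.5, 1, 2, 6, 12, 15, 18, 21 and 24 h in 500 nM 4-OHT gave 2 libraries at each of 10 time points, 20 in all. Every group, 0 h included, carried the construct, and neither cells without it nor a vehicle course were analysed here, so effects of IKZF1, of 4-OHT and of time in culture cannot be told apart. The labels do not say whether the replicates were separate cultures, so p-values measure the spread between these libraries, which may be technical.

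IKZF1 is a zinc finger transcription factor that drives pre-B cells from proliferation towards differentiation, binds DNA at sites with a GGGAA core and recruits corepressors such as the NuRD complex. Chromatin-associated RNA is enriched for transcripts still being made. Reads in introns were counted, so a level covers the whole gene body, and in a long gene reads from polymerases that started earlier remain for a time after initiation changes.

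Libraries held 33296158 to 46868954 counts, with a median of 40943260. From here on, levels in CPM are TMM-scaled (trimmed mean of M-values, which sets libraries level on most genes). Among pre-B markers 8 of 10 reached 1 CPM, and their summed level ran from 8200 to 16485 CPM over the libraries, while Rag1 and Rag2 were at 3 counts or fewer. None of 6 T cell, 4 erythroid or 4 fibroblast markers reached 1 CPM, and their summed levels stayed at or below 1.44, 1.19 and 0.194 CPM. Myeloid markers summed to 0.678 to 2.18 CPM, with 1 of 7 reaching 1 CPM. The 3 NK markers went from a summed 2.61 CPM at 0 h to 57.7 CPM at 24 h. Only 1 of the 3 reached 1 CPM and Ncr1 was at 3 counts or fewer. The part of NK markers in the results was not tested. Ikzf1 counts averaged 4842 CPM at 0 h and 8804 CPM at 24 h, and these counts include any reads from the construct that match the gene.

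The 41 genes were, as selected, lower than at 0 h after 2 h, and most turned upwards from there. Their median log2 fold change from 0 h was -0.26 at 30 min, -0.94 at 1 h, -1.14 at 2 h, -0.44 at 6 h, 0.19 at 12 h, 0.63 at 15 h, 1.05 at 18 h, 1.34 at 21 h and 1.43 at 24 h. These medians are TMM-scaled, whereas the genes were selected on library-total ratios from the same 0 h, 2 h and 24 h libraries. Relative to library totals, TMM scaling moves log2 changes from 0 h by 0.258 at 24 h and by -0.0116 at 2 h. All values against 0 h are given as a description. The lowest level was at 2 h in 30 genes and at 1 h in 7. It came at 6 h for Tmc7, Tmcc2 and Ceacam16, and at 15 h for Car12. At its lowest point a gene kept a median 42.5% of its 0 h level, from 16.8% for Tmcc2 to 55.8% for Junos.

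Return to the 0 h level came at a median of 9.17 h, by linear interpolation between time points, and spread from 3.88 h for Epsti1 to 19.6 h for Car12. After the lowest level of a gene, the first time point above its 0 h level was 6 h for 12 genes, 12 h for 17 and 15 h for 8. Only Skp2 and Tmc7 crossed first at 18 h, and Car12 and Clstn3 at 21 h. Jun crossed at 6 h with 1.77 and 1.79 CPM against 1.75 and 1.76 CPM at 0 h, and was below that level again at 12 h with 1.29 and 1.496 CPM. The highest level was at 24 h for 30 genes, at 21 h for 8 and at 18 h for Ptgr1, Myo3b and Trim30b, which were lower again at 24 h. Times of the lowest and highest level are read from means of 2 libraries, and not all are separated from other time points. Hdac9, placed at 21 h, held 6235 and 5769 CPM there and 5718 and 6220 CPM at 24 h.

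**Figure D1:**
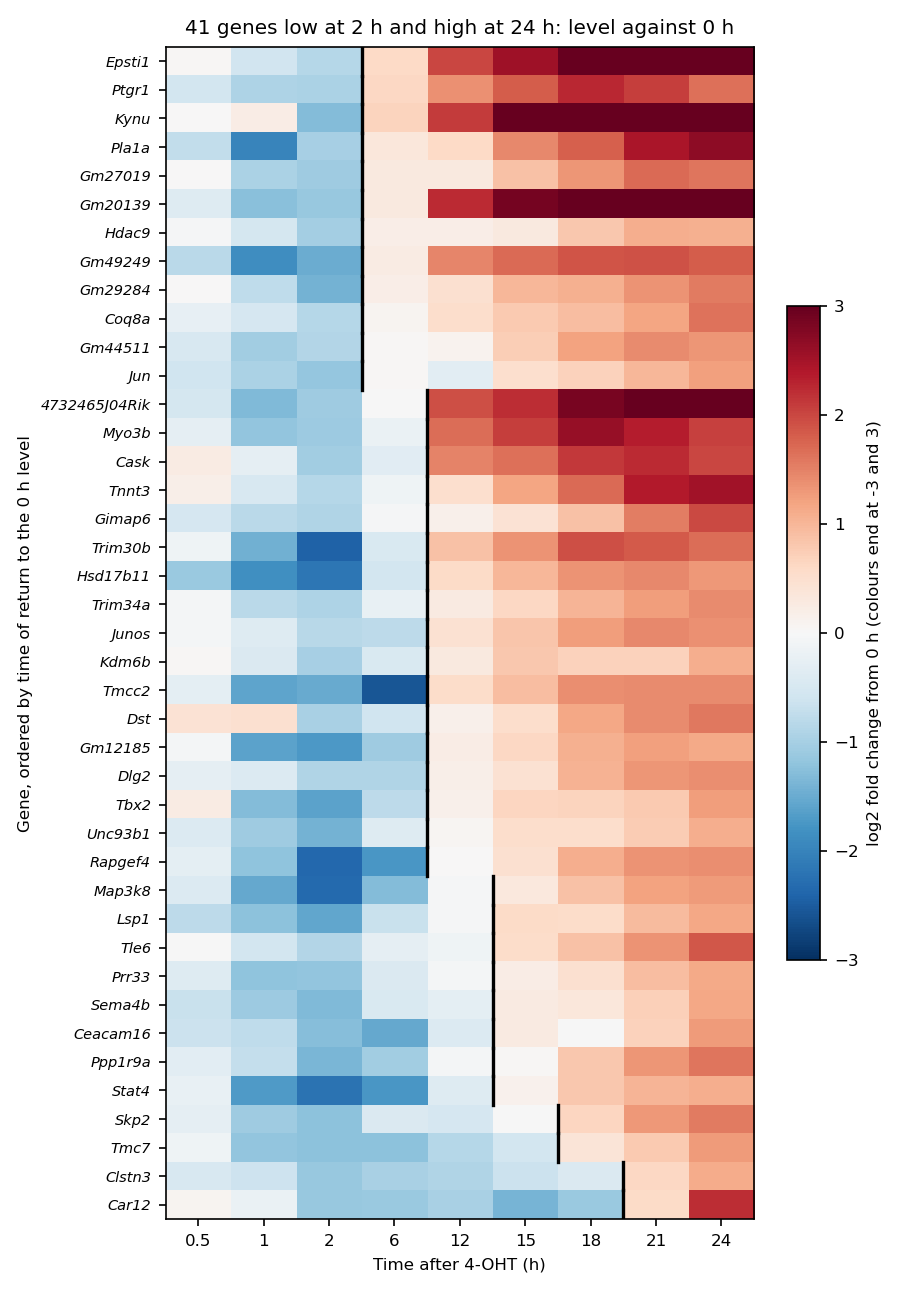
Heat map of the log2 fold change from 0 h (colour, ending at -3 and 3) of the 41 genes. Rows are ordered by time of return, and columns are 9 time points in h after 4-OHT. A black bar precedes the first time point above the 0 h level that follows the lowest level of the gene. The bar stands before 6 h in 12 genes, 12 h in 17, 15 h in 8, 18 h in 2 and 21 h in 2.

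Genes at the edge of the selection show how graded it is. Just inside the 2 h threshold were Tnnt3 at -0.801 and Junos at -0.811, and just outside were Parp3 at -0.793 and Prkra at -0.774. For the 24 h threshold, Hdac9 at 0.820 and Unc93b1 at 0.825 were just inside, and Gas7 at 0.782 and Gm42638 at 0.767 were just outside.

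Whether the fall and the rise held in libraries that did not select the genes was asked in 4 comparisons among the other 14 libraries. They used TMM-scaled counts. Calls required a fold change above 2 and an adjusted p under 0.01 in edgeR's quasi-likelihood test over 16601 genes. The levels below are again TMM-scaled CPM. All 41 genes had enough counts for the test. At 0 h their median level was 4.40 CPM, against 11.5 CPM for the stayed low genes and 12.7 CPM for those in between. The counts of calls set beside each other below were not adjusted for this difference.

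From 30 min to 1 h, 8 of the 41 genes were called down and 0 up, against 3.08% of all genes tested down and 1.69% up. Their median log2 change was -0.65, with 39 of 41 below 0, and that of all genes was 0.00, with 8313 of 16601 below 0. Of the stayed low genes 306 of 902 were called down, with a median of -0.76, and of those in between 40 of 266, with a median of -0.57. The genes called down were Tbx2, Gm12185, Stat4, Trim30b, Tmcc2, Map3k8, Gm49249 and Tmc7. Leaving out 1 of the 4 libraries gave 6 to 8 calls, with Tmcc2 lost without either 1 h library or 30 min replicate 2, Gm49249 without 1 h replicate 1 or 30 min replicate 2, and Tmc7 without 1 h replicate 2.

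From 1 h to 6 h, 10 genes were called up and 1 down, against 6.68% of all genes up and 4.01% down. The median of the 41 was 0.59, with 28 above 0. Of the stayed low genes 10 of 902 were up and 285 down (median -0.61), and of those in between 9 of 266 were up and 18 down (median 0.00). Pla1a, Gm49249, Ptgr1, Gm20139, 4732465J04Rik, Hsd17b11, Gm27019, Epsti1, Gm44511 and Myo3b rose, and Dst fell. Myo3b stood at the fold threshold, with a log2 change of 1.00, and was not called by DESeq2 (0.99), with its size factors (0.99), with no count filter (0.98), in fits of only the 14 (0.998) or the 4 libraries compared (0.98), without 1 h replicate 2 (0.998) or without 6 h replicate 1 (0.96). Gm44511 was not called without 1 h replicate 1 (0.97), and the call on Dst was lost without 6 h replicate 1 (log2 change -0.90, adjusted p = 0.0147 in edgeR).

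From 6 h to 21 h, 39 of the 41 were called up and 0 down, against 10.4% of all genes up and 11.0% down, and the median was 2.00. Hdac9, at 0.89, and Jun, at 0.97, passed the adjusted p but not the fold threshold. From 1 h to 21 h, 39 were up and 0 down, against 17.9% of all genes up and 16.4% down, with a median of 2.34, and Car12 (0.77) and Dst (0.94) missed the fold threshold. Of the stayed low genes 24 of 902 rose and 384 fell from 1 h to 21 h, and of those in between 103 of 266 rose and 1 fell. Both 21 h comparisons use the same 21 h libraries, and 1 h and 21 h lie next to the time points that selected the genes. TMM scaling sets log2 changes 0.24 higher than library totals from 6 h to 21 h and 0.21 higher from 1 h to 21 h, and under totals 34 and 38 genes were called up.

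**Figure D2:**
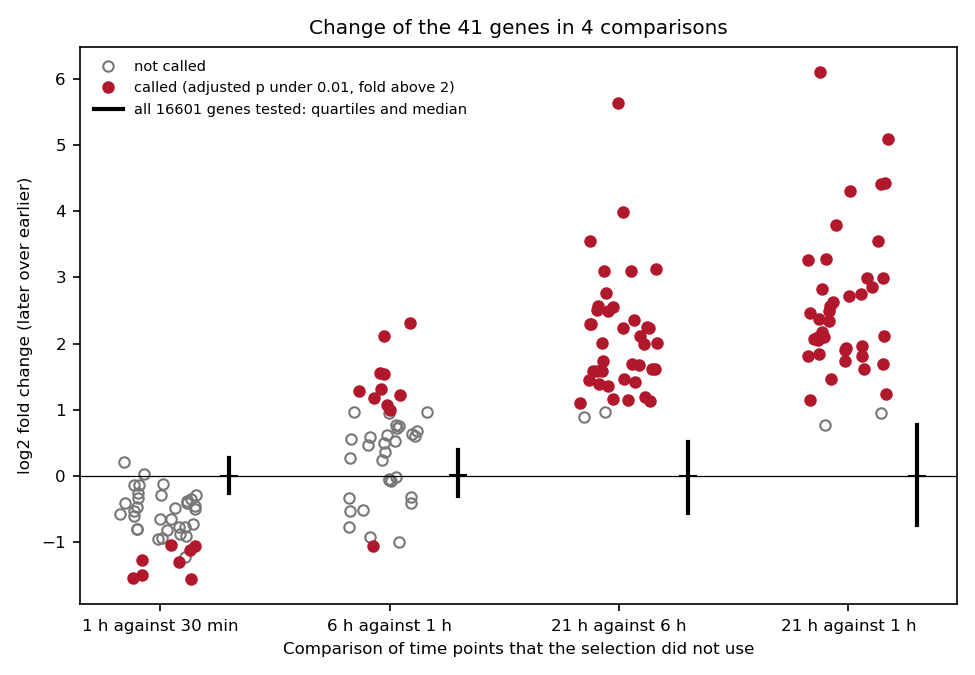
Log2 fold change (y axis, later over earlier time point) of each of the 41 genes in 4 comparisons among the 14 libraries that did not select them. Filled points passed the test (8 down at 1 h against 30 min, 10 up and 1 down at 6 h against 1 h, 39 up in each of the other two), open points did not, and the black bar gives the quartiles and median of all 16601 genes.

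**Figure D3:**
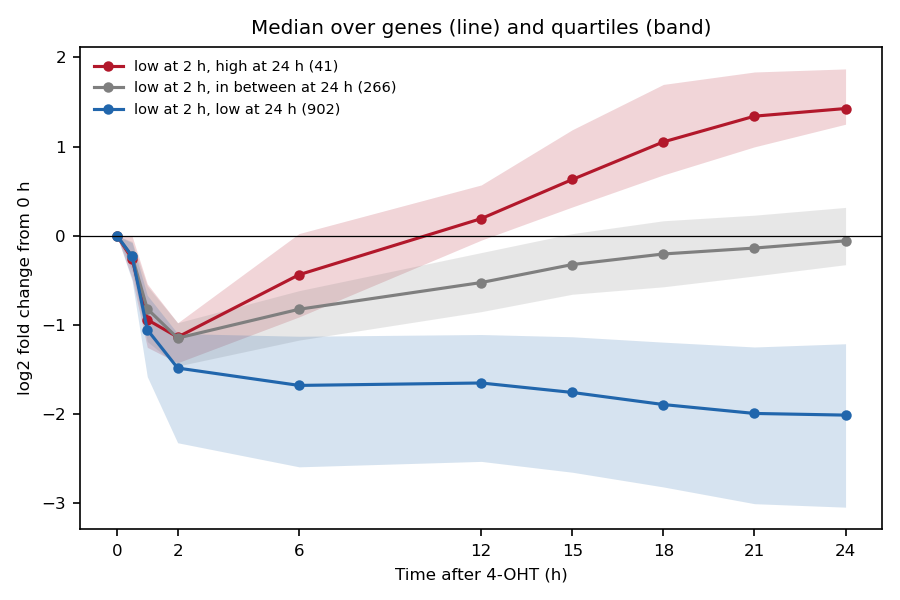
Median log2 fold change from 0 h (lines) and quartiles (bands) over h after 4-OHT for the 41 genes, the 266 in between and the 902 that stayed low. The medians were -0.94, -0.82 and -1.05 at 1 h and -0.44, -0.83 and -1.68 at 6 h, time points that lie before 24 h. As changes from 0 h, however, they share the 0 h libraries with the ratios that selected and divided the groups.

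The order of calls differed between genes. A rise in both late comparisons with no call before was the pattern of 20 genes. A further 9 also rose from 1 h to 6 h, and 7 had instead fallen from 30 min to 1 h. Gm49249 alone was called in all 4 comparisons, falling and then rising at each step. Groups by known role, described next, were drawn up after the values were seen, and their counts are a description. Below, a fall or log2 change by 1 h is the step from 30 min to 1 h. It leaves out falls made before 30 min, such as that of Hsd17b11.

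Among 6 genes of transcription and chromatin, 2 fell by 1 h and all 6 rose from 1 h to 21 h, with return at a median of 10.1 h. Stat4, which carries interleukin-12 signals to the nucleus, was at 47.1 and 47.6 CPM at 0 h, 41.7 and 40.0 CPM at 30 min and 14.5 and 14.5 CPM at 1 h. It was lowest at 2 h with 10.1 and 10.3 CPM, still at 13.5 and 14.6 CPM at 6 h, and reached 96.9 and 94.0 CPM at 21 h and 99.7 and 103 CPM at 24 h. Both 1 h libraries lay below both 30 min libraries, by a log2 change of -1.49 ± 0.05 (SE; adjusted p = 7.35e-15, edgeR, n = 2 libraries each). From 1 h to 6 h it did not pass the test (-0.04 ± 0.06), and from 6 h to 21 h it rose 6.77-fold.

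Tbx2, a T-box repressor, had a log2 change of -1.56 ± 0.30 from 30 min to 1 h (adjusted p = 0.000254, edgeR), the largest fall among the 41 and one made at low counts. It went from 1.41 and 1.56 CPM to 0.579 and 0.418 CPM, and was at 1.73 and 2.53 CPM at 21 h. Hdac9, a class IIa histone deacetylase, had the second highest level per length at 0 h, 3.25 CPM per kb after Gm27019 with 5.82 CPM per kb, where the median of the 41 was 0.160 CPM per kb. It held 2697 and 2802 CPM at 30 min, 1941 and 1976 CPM at 1 h, 1395 and 1405 CPM at 2 h, 3203 and 3279 CPM at 6 h and 6235 and 5769 CPM at 21 h. Its level thus stood above 0 h (2792 and 2863 CPM) at 6 h, stayed near that value through 15 h and was higher after.

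Jun, the AP-1 subunit, went from 1.75 and 1.76 CPM at 0 h to 0.887 and 0.694 CPM at 2 h and 3.66 and 3.37 CPM at 21 h. It was called only from 1 h to 21 h, with a log2 change of 1.94 ± 0.18. The antisense gene Junos, which overlaps it, moved from 5.08 and 5.36 CPM at 0 h to 3.15 and 2.87 CPM at 6 h and 14.3 and 14.2 CPM at 21 h. Without a stated strand setting, reads of the pair cannot be told apart. Kdm6b, an H3K27 demethylase, and Tle6, of the Groucho corepressor family, were not called before 6 h and rose by 1.16 ± 0.11 and 1.62 ± 0.15 on the log2 scale from 6 h to 21 h. For Kdm6b that call was lost under library totals (0.93), as was the one from 1 h to 21 h (0.93).

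The bases just upstream of 4 of these genes are shown because their RNA marks out the pattern: a deep fall in Stat4 and Rapgef4, the earliest return in Epsti1, and Jun as the AP-1 gene. Each is the 250 bases before the RefSeq start (GRCm38.p6), on the strand of the gene, and overlaps no exon of GENCODE M21. On the opposite strand the Jun window holds a RefSeq start of Junos. Capitals mark GGGAA or its reverse complement TTCCC, the core of the IKZF1 site. The Stat4 window is chr1:51986898-51987147 (+), that of Rapgef4 is chr2:71980965-71981214 (+), that of Epsti1 is chr14:77903989-77904238 (+) and that of Jun is chr4:95052223-95052472 (-).
Stat4: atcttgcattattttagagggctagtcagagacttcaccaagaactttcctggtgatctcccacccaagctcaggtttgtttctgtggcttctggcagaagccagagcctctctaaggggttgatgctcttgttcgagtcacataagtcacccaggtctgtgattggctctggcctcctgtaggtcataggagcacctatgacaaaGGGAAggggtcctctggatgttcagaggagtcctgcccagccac
Rapgef4: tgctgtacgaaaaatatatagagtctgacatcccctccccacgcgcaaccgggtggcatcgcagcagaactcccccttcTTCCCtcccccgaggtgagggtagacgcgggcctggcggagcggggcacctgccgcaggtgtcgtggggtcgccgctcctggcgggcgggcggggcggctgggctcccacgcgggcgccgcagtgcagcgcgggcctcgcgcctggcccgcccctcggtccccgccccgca
Epsti1: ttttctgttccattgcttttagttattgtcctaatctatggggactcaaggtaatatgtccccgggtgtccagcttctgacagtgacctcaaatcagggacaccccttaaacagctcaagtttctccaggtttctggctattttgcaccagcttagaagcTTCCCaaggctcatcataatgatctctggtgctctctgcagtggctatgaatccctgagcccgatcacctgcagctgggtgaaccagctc
Jun: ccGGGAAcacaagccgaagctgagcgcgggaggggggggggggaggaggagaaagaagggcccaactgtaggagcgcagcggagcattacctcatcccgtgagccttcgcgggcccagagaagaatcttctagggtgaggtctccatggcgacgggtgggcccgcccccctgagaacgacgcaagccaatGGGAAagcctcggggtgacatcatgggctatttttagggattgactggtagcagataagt

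Jun has 2 such cores in its window and each of the others 1. Stat4 has a second RefSeq start, whose window at chr1:52007990-52008239 (+) has 0 such cores and is not printed. RefSeq promoters of 300 bases (250 before to 50 after the start) matched 28 of the 41 genes by symbol, with 47 starts. GGGAA on either strand was in 72.3% of these 47, against 62.7% of all 32851 promoters. The longer TGGGAA, which is counted within GGGAA, was in 38.3% against 25.6%, the E-box CAGGTG in 34.0% against 20.2%, and the AP-1 site TGANTCA in 10.6% against 7.81%. Several starts belong to the same gene, with the most for Junos. Counted by gene, GGGAA was in 22 of the 28, TGGGAA in 12, CAGGTG in 12 and TGANTCA in 4. No test was made, and a match says only that the letters are there.

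Signalling and adhesion held 8 genes, of which 1 fell by 1 h, 0 were called from 1 h to 6 h, and all 8 rose from 6 h to 21 h, with return at a median of 12.8 h. Rapgef4, an exchange factor for Rap GTPases that responds to cAMP, went from 52.8 and 56.0 CPM at 0 h to 44.3 and 44.1 CPM at 30 min, 24.4 and 22.6 CPM at 1 h and 10.7 and 10.6 CPM at 2 h. It was at 16.3 and 16.2 CPM at 6 h, 50.8 and 58.1 CPM at 12 h and 141 and 138 CPM at 21 h. The 21 h libraries lay well above both 6 h libraries, by 3.10 ± 0.06 on the log2 scale (adjusted p = 1.89e-20, edgeR).

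Skp2, the F-box subunit of a ubiquitin ligase that targets the cell cycle inhibitor p27, was among the last to return. It held 113 and 115 CPM at 0 h, 54.7 and 53.9 CPM at 1 h, 84.2 and 84.2 CPM at 6 h, 113 and 115 CPM at 15 h and 283 and 276 CPM at 21 h. At 15 h it was therefore back at its starting level. Map3k8, a kinase upstream of ERK, was called down by 1 h at -1.12 ± 0.20, from 1.76 CPM in both 30 min libraries to 0.828 and 0.786 CPM. The scaffold genes Dlg2 and Cask, the neurabin gene Ppp1r9a, the semaphorin Sema4b and the calsyntenin Clstn3 had changes of -0.14 to -0.50 by 1 h, none of them called, and rose by 1.19 to 2.57 from 6 h to 21 h on the log2 scale. Sema4b was not called up in that step under library totals (0.95).

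The 6 genes of innate immunity or with neighbours of that kind all rose from 1 h to 21 h, 2 fell by 1 h, and return came at a median of 7.94 h. Epsti1, an interferon-induced gene, was at 16.0 and 15.5 CPM at 0 h, 16.2 and 16.0 CPM at 30 min, 11.0 and 9.97 CPM at 1 h, 24.3 and 23.3 CPM at 6 h and 211 and 206 CPM at 21 h. It did not pass the fold threshold in its fall (-0.61 ± 0.06), rose 2.26-fold from 1 h to 6 h and 19.8-fold from 1 h to 21 h. Gm12185 lost 1.54 ± 0.11 on the log2 scale by 1 h, from 4.60 and 5.21 CPM to 1.70 and 1.70 CPM (adjusted p = 3.04e-10, edgeR). Its antisense neighbour Olfr56 had a log2 change of -1.37 in the same step and of 1.93 from 1 h to 21 h, and the reads of the pair may be shared. Psme2b, 9930111J21Rik1 and Tgtp1 overlap Gm12185 on its own strand, so its counts could include their reads too.

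Unc93b1, which carries nucleic acid sensing Toll-like receptors to endosomes, went from 15.9 and 15.7 CPM at 0 h to 6.00 and 5.92 CPM at 2 h and 26.2 and 27.1 CPM at 21 h, and its rise from 6 h was not called under library totals (0.90). Gimap6, a GTPase gene of lymphocytes, went from 8.75 and 9.30 CPM to 4.98 and 4.67 CPM and then 28.1 and 24.6 CPM at the same times. Trim34a and Trim30b lie within 200 kb of each other on chromosome 7 among other TRIM genes, a family with many interferon-induced members. Trim30b was at 1.99 and 1.89 CPM at 0 h, 0.807 and 0.614 CPM at 1 h, 0.418 and 0.301 CPM at 2 h and 7.06 and 6.84 CPM at 21 h, with a called fall by 1 h of -1.30 ± 0.23. For Trim34a the levels were 8.90 and 9.01 CPM, 4.70 and 5.50 CPM, 4.75 and 4.67 CPM, and 21.0 and 21.7 CPM.

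Trim5 and Trim12a, their neighbours, also rose from 1 h to 21 h, after log2 changes of -0.03 and -0.38 by 1 h that were not called. Trim5 had mean levels of 3.75 CPM at 0 h, 4.87 CPM at 2 h and 38.1 CPM at 21 h, and Trim12a 8.19, 8.97 and 48.6 CPM. Trim30a was at 49.8 CPM at 30 min, 27.1 CPM at 1 h (log2 change -0.88, not called) and 39.4 CPM at 2 h, so its lowest level came before that of Trim30b. The sequences of these genes are close, and counts could be split between them.

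**Figure D4:**
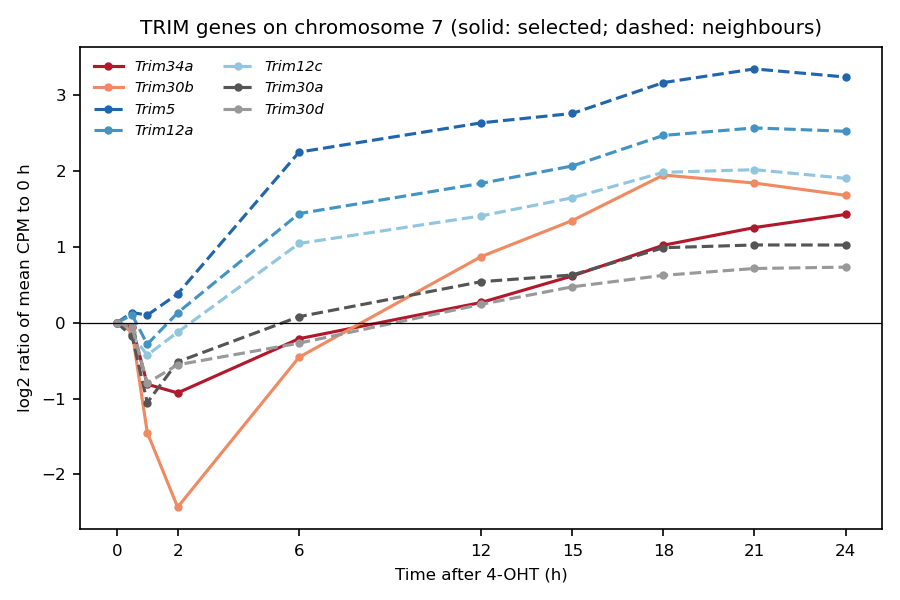
Log2 ratio of mean CPM to 0 h (y axis) over h after 4-OHT for Trim34a and Trim30b (solid lines) and 5 neighbouring TRIM genes (dashed lines). At 2 h Trim30b and Trim34a were at their lowest, while Trim5 stood above its 0 h level and Trim30a and Trim30d had turned upwards after 1 h.

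The 6 metabolic genes returned at a median of 5.07 h, from 3.90 h for Ptgr1 to 19.6 h for Car12, and 5 of them rose from 1 h to 21 h. Kynu, which encodes kynureninase of tryptophan breakdown, had the largest rise of the 41. Its libraries held 33.8 and 34.7 CPM at 0 h, 33.9 and 34.8 CPM at 30 min, 38.9 and 40.7 CPM at 1 h, 13.65 and 14.04 CPM at 2 h, 53.8 and 55.7 CPM at 6 h, 402 and 414 CPM at 15 h, 2837 and 2624 CPM at 21 h and 3734 and 3923 CPM at 24 h. Both 1 h libraries were above both 30 min libraries, by a log2 change of 0.21 ± 0.08 that did not pass the test (adjusted p = 0.0521, edgeR), and the dip rests on the 2 h libraries that selected it. The rise from 1 h to 21 h was 68.7-fold, or 6.10 ± 0.09 on the log2 scale (adjusted p = 1.01e-22, edgeR). Per kb of gene body Kynu moved from 0.269 CPM at 0 h to 30.1 CPM at 24 h, the highest of the 41 at that time, where the median was 0.840 CPM.

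Hsd17b11, a dehydrogenase of lipid droplets, was already low at 30 min. It went from 29.4 and 31.1 CPM at 0 h to 13.6 and 14.2 CPM at 30 min, 8.38 and 8.48 CPM at 1 h and 6.68 and 6.87 CPM at 2 h. Both later pairs were higher, with 20.1 and 21.1 CPM at 6 h and 84.1 and 80.4 CPM at 21 h. At 30 min it held 45.9% of its 0 h level, the least of the 41, where the median was 83.5%. Ptgr1, a reductase of prostaglandins and leukotrienes, rose 2.94-fold from 1 h to 6 h and peaked at 18 h with 55.6 and 61.3 CPM against 39.3 and 36.5 CPM at 24 h. Pla1a, a phospholipase, had the steepest step from 1 h to 6 h, 2.32 ± 0.36 on the log2 scale, from 0.207 and 0.172 CPM to 0.911 and 1.01 CPM. Its 2 h libraries disagreed, at 0.183 and 0.555 CPM.

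Car12, a membrane carbonic anhydrase, was the last to return. It was at 35.9 and 36.5 CPM at 30 min, 29.0 and 30.1 CPM at 1 h, 15.7 and 15.4 CPM at 6 h, 13.9 and 11.8 CPM at 15 h, 16.1 and 15.3 CPM at 18 h, 49.2 and 51.3 CPM at 21 h and 155 and 157 CPM at 24 h. From 2 h to 18 h no library exceeded 17.7 CPM, and the higher levels came in the last 6 h. Coq8a, of coenzyme Q synthesis, went from 9.66 and 8.602 CPM at 0 h to 4.85 and 5.16 CPM at 2 h and 21.8 and 20.01 CPM at 21 h, with the rise from 6 h not called under library totals (0.86).

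**Figure D5:**
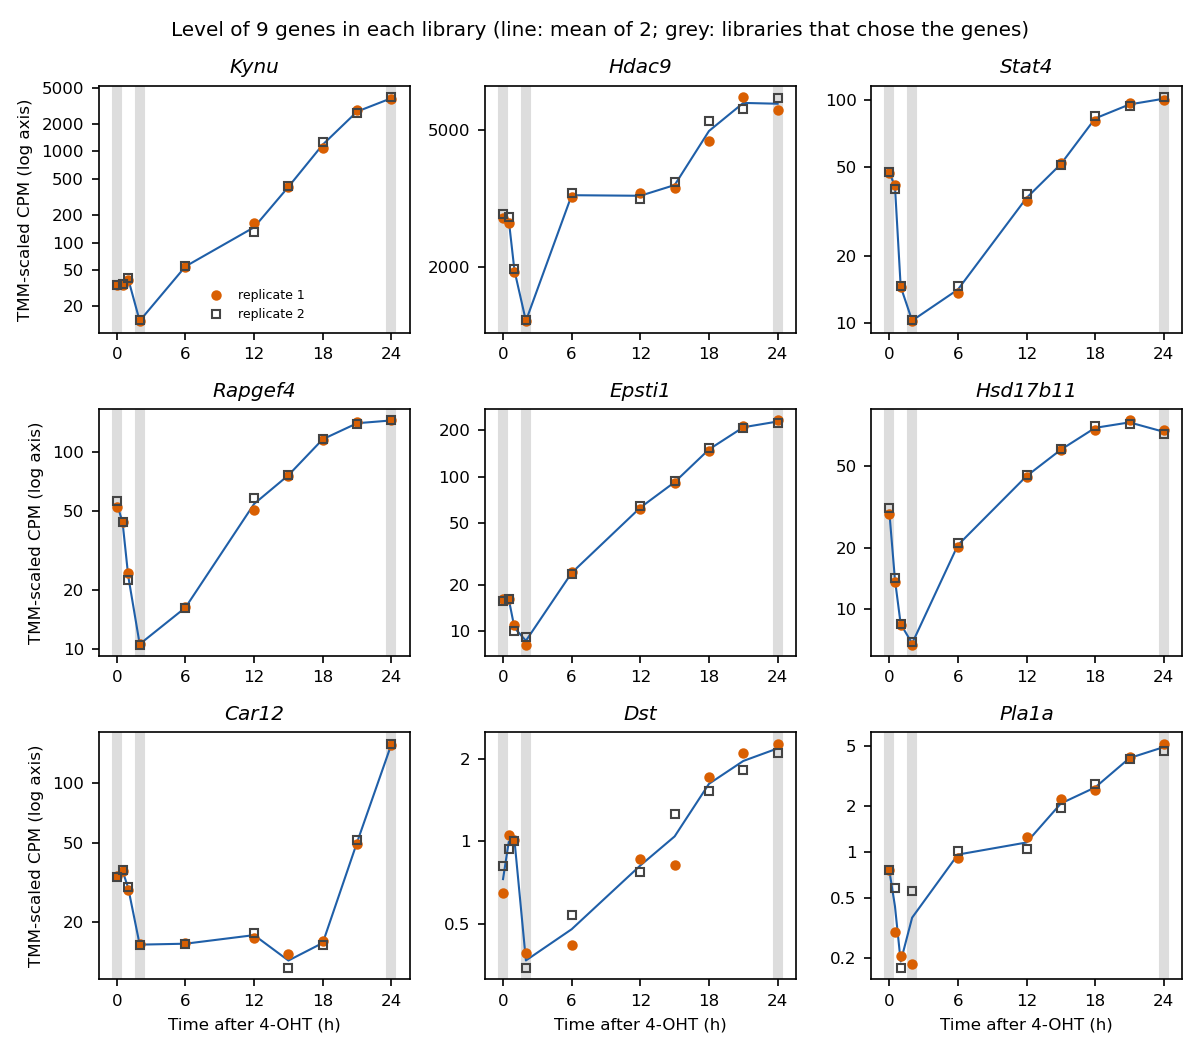
Level in TMM-scaled CPM (log axis) of 9 of the genes in each library over h after 4-OHT, with filled points for replicate 1, open squares for replicate 2, lines for the mean of 2 and grey bands at the time points that selected the genes. Kynu rises from 13.65 and 14.04 CPM at 2 h to 3734 and 3923 CPM at 24 h, Stat4 falls before 2 h and returns after 12 h, and Car12 stays low until 18 h.

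Of 4 cytoskeletal genes all rose from 6 h to 21 h. Lsp1, an actin-binding protein of leukocytes, Prr33 and Tnnt3, a troponin T of fast muscle, lie side by side on chromosome 7, and Prr33 is antisense to both others. Lsp1 went from 48.3 and 47.6 CPM at 0 h to 28.5 and 27.3 CPM at 30 min, 16.3 and 16.2 CPM at 2 h and 86.9 and 97.1 CPM at 21 h. Tnnt3, at 2.16 and 2.86 CPM at 0 h, was no lower at 30 min (2.82 and 2.83 CPM), reached 1.44 and 1.34 CPM at 2 h and 12.6 and 13.4 CPM at 21 h. Prr33 went from 2.03 and 2.07 CPM to 0.835 and 0.949 CPM and 3.70 and 4.02 CPM at 0 h, 2 h and 21 h. Tnni2, a troponin I gene on the other side of Lsp1, went from a mean of 2.48 CPM at 0 h to 0.552 CPM at 2 h and was at 1.05 CPM at 24 h.

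Myo3b, a class III myosin, rose 1.00 ± 0.12 on the log2 scale from 1 h to 6 h and peaked at 18 h with 27.3 and 26.3 CPM, against 4.45 and 4.35 CPM at 0 h. Dst, which links cytoskeletal filaments, was the one gene called against the others. It was at 1.06 and 0.936 CPM at 30 min and 1.01 and 1.01 CPM at 1 h, above 0.648 and 0.811 CPM at 0 h, and at 0.420 and 0.539 CPM at 6 h, a log2 change of -1.06 ± 0.24 from 1 h. By 21 h it was at 2.10 and 1.82 CPM. Dst spans 400 kb, and its level of 0.0018 CPM per kb at 0 h was the lowest of the 41.

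Of 7 noncoding genes and pseudogenes 4 rose from 1 h to 6 h, 7 rose from 6 h to 21 h, and the median return was at 5.26 h. Gm20139, a lincRNA, went from 3.80 and 4.46 CPM at 0 h to 1.80 and 1.65 CPM at 1 h, 4.44 and 5.58 CPM at 6 h and 60.1 and 58.3 CPM at 21 h, a 34.2-fold rise from 1 h. Its start lies 126.1 kb from that of Tnfaip3, an inhibitor of NF-kB signalling, which had a mean of 24.3 CPM at 0 h, 5.04 CPM at 30 min and 19.5 CPM at 24 h. The lincRNA 4732465J04Rik went from 0.497 and 0.442 CPM at 1 h to 9.90 and 10.2 CPM at 21 h, a 21.2-fold rise. Gm49249 fell by 1.06 ± 0.25 by 1 h, from 0.921 and 0.958 CPM to 0.331 and 0.590 CPM, and rose by 2.11 ± 0.21 to 6 h. Gm29284, an unprocessed pseudogene inside C130026I21Rik, shares its sequence with a parent gene, so its counts are uncertain, and its rise from 6 h was not called under library totals (0.91).

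Gm27019, of 0.404 kb, overlaps the hairpin of Mir29b-1 on chromosome 6, upstream of Mir29a on the same strand. The mature 3p forms are shown because Gm27019 lies near the bases that encode them. They are given as RefSeq (GRCm38.p6) has them, with the seed, bases 2 to 8, in capitals.
mmu-miR-29a-3p: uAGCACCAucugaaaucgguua
mmu-miR-29b-3p: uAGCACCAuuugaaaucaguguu
They lie at chr6:31062673-31062694 (-) and chr6:31063025-31063047 (-) and share the seed. Both lie outside Gm27019 itself, which spans chr6:31063092-31063495 (-), so its counts do not cover them. Gm27019 went from 2.20 and 2.50 CPM at 0 h to 1.12 and 1.11 CPM at 2 h, 2.85 and 2.87 CPM at 6 h and 8.62 and 6.76 CPM at 21 h. It rose by 1.22 ± 0.15 from 1 h to 6 h. The Mir29a locus had a mean of 0.331 CPM at 0 h and 1.82 CPM at 21 h, a log2 change of 3.38 from 1 h, and the level of the mature miRNAs was not measured.

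The remaining 4 genes, Tmc7, Tmcc2, Ceacam16 and Gm44511, rose from 6 h to 21 h. Tmcc2 was lowest at 6 h with 0.280 and 0.194 CPM, against 1.296 and 1.53 CPM at 0 h, and reached 3.66 and 3.86 CPM at 21 h. Its fall from 30 min to 1 h was -1.28 ± 0.33 (adjusted p = 0.00342, edgeR). Gm44511 overlaps Klrb1c and Klrb1b on its own strand, so its counts cannot be given to 1 gene with certainty, and went from 2.87 and 2.93 CPM at 0 h to 1.32 and 1.499 CPM at 1 h and 7.46 and 7.98 CPM at 21 h.

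Some features that the selection did not use were counted. By annotation 34 of the 41 genes were protein coding, 5 were lincRNAs, 1 was antisense and 1 a pseudogene, and they lay on 16 chromosomes. Median gene length was 34.97 kb, against 25.02 kb for the stayed low genes, 26.9 kb for those in between and 20.8 kb for all tested, and 24.4% exceeded 100 kb, against 16.4%, 16.5% and 12.9%. The fall by 1 h was called in 1 of the 10 genes over 100 kb (median -0.45) and in 7 of the other 31 (median -0.72), a difference that was not tested. Return came at a median of 9.80 h in the long genes and 8.41 h in the others. Another counted gene overlapped 25 of the 41, on the same strand in 12 and on the opposite strand in 19, and their counts could include reads of the other gene.

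Around the 41 genes, 210 other tested genes had their start within 200 kb of a member's start. From 1 h to 21 h 33.3% of them were called up and 9.05% down, against 17.9% and 16.4% of all genes tested. From 30 min to 1 h 3.33% were called down, near the 3.08% of all genes. All 7 neighbours of Car12 and all 6 of Skp2 rose from 1 h to 21 h, as did 7 of 11 around Gimap6, while 1 of 15 rose around Tle6 and 2 of 16 around Unc93b1. Neighbouring genes can share reads and regulatory sequence, and neither was tested.

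Lists of related genes were counted as well, against 3.08% of all genes down by 1 h and 17.9% up from 1 h to 21 h. Of 29 tested immediate early genes, which include Jun, 4 were down by 1 h and 9 up from 1 h to 21 h, and of 46 innate sensing and interferon genes, none of them among the 41, 2 and 24. The counts were 0 and 5 for 17 NF-kB feedback genes and targets, 4 and 15 for 44 genes of antigen receptor signalling, 4 and 24 for 52 lymphocyte surface receptors, and 5 and 12 for 43 lymphoid transcription factors. Falls from 1 h to 21 h were called as well, against 16.4% of all genes. In the order given, the 6 lists had 5, 1, 1, 6, 3 and 12 genes down. Lymphoid transcription factors thus had as many down as up. These lists share none of the 41 other than Jun. The innate sensing and interferon list does not include Epsti1, Unc93b1, Trim34a or Trim30b, grouped above under innate immunity. Its lack of overlap therefore reflects which genes it holds.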

How the data were processed

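Chromatin-associated RNA of B3 cells carrying Ikaros-ERt2 was sequenced at 10 time points with 2 replicates. The authors purified RNA from chromatin pellets, depleted rRNA, built directional libraries, used nf-core/rnaseq with STAR on mm10, and counted with featureCounts with intronic reads included. They deposited raw counts per gene, without normalization. The submitters' processing notes also name CASAVA 2.17 and GRCm38. The annotation release and strand setting are not given in the sources used here. Columns were matched to samples by name. Replicates of a time point differed by a chi-square per degree of freedom of 1.24 to 13.4, more than sampling noise. It was highest at 18 h, followed by 9.0 at 12 h and 4.4 at 21 h. The fit shares its estimate of the spread over all time points.

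The 41 genes, the gene lists and the comparisons were chosen with earlier results of these data known. Genes with 10 or more counts in at least 2 libraries (16601) were tested with edgeR 4.0.16 in R 4.3.3 (TMM, time point as a factor, quasi-likelihood, Benjamini-Hochberg). The 0 h, 2 h and 24 h libraries selected the genes and entered the fit only for the spread. The model was tested on simulated data. The fit was repeated with size factors of DESeq2, with library totals, other count filters, on 14 or 4 libraries, with a replicate block, DESeq2 1.42.0, other thresholds, leaving out each library, and changed selection rules. Annotation was GENCODE M21, with 55240 identifiers matched. Standard errors come from the edgeR fit and include the spread between libraries. No molecular identifiers are stated for the reads.

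Genes were named by rule: the 10 with the highest mean CPM over the 14 libraries, the 6 largest falls by 1 h and the 6 largest rises to 6 h and to 21 h among called genes, those called against the rest, those at the thresholds, on lists or within 200 kb of each other. Others were named after their values were seen.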

Additional observations from a re-analysis of the deposited data

How the results depend on the processing

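The numbers of the 41 genes called held within 1.5 times under every scaling, filter, subset of libraries, replicate block and DESeq2 tried, and at an adjusted p under 0.05. With no fold threshold, 27 genes were called down from 30 min to 1 h and 24 up from 1 h to 6 h. Without 1 library, 6 to 8 were down from 30 min to 1 h, 9 to 12 up from 1 h to 6 h, 39 to 40 up from 6 h to 21 h and 39 to 40 from 1 h to 21 h. The selection gave 85 genes at a threshold of 0.6, 14 at 1.0 and 56 on TMM-scaled CPM, with all 41 kept at 0.6 and on TMM-scaled CPM. With 1 h in place of 2 h it gave 41, of which 25 were among the 41, and with 21 h in place of 24 h 31, of which 29 were. With replicate 1 alone it gave 44 genes, of which 36 were among the 41 (Dst, Gimap6, Gm44511, Hdac9 and Tnnt3 were not selected), and with replicate 2 alone 42, of which 34 were (Clstn3, Coq8a, Epsti1, Junos, Kdm6b, Pla1a and Prr33 were not). Some log2 changes that were not called crossed 0. Under library totals Dst by 1 h was at -0.00040 and Kdm6b from 1 h to 6 h at 0.0028. Without 1 library Dst by 1 h ran from -0.064 to 0.11, and from 1 h to 6 h Kdm6b ran from -0.069 to 0.024, Cask from -0.28 to 0.11, Tmc7 from -0.16 to 0.047, Stat4 from -0.10 to 0.016 and Map3k8 from -0.025 to 0.44. The cause of these moves was not tested.

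Replicate numbers did not pair the libraries consistently. Deviations of libraries with the same number correlated with a mean r of 0.0252 over 45 pairs of time points. The values ran from -0.654 to 0.433, with 18 above 0.1, so some pairs lay far from 0. Whether libraries of different time points are independent, as the p-values assume, was not tested. With a replicate block the counts were 8, 10, 39 and 39, as without it.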
